A study of Homo sapiens with 12 samples.

Results

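The MYC, MAX and MXD network is a set of basic helix-loop-helix leucine zipper factors whose genes were followed here by name in the deposited count table. The members were MYC, MYCN, MAX, MXD1, MXI1, MXD3, MXD4, MNT, MLX and MGA, which are 10 of the 50868 gene rows. MG63, an established human osteosarcoma cell line, was studied in 4 groups of 3 RNA-seq libraries each. Cells were exposed for 18 hours to 1 µM anticarin-beta or to its vehicle in the compound experiment, and carried CCT4-specific siRNA or Allstar control siRNA for 2 days in the transfection experiment, all in DMEM with serum. The study set out to find genes that respond to the compound, and used knockdown of CCT4, a chaperonin subunit, as its other treatment.

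MYC and MYCN pair with MAX, bind DNA at the E-box, and mostly raise the transcription of genes for growth, ribosome production and metabolism. The MXD proteins and MNT compete with them for MAX and bring SIN3 and histone deacetylases to the same sites, MGA carries MAX into a Polycomb-type repressor complex, and MLX is a MAX-like partner that also serves the glucose-sensing factors MLXIP and MLXIPL. Gain of the MYC locus is a recurrent event in osteosarcoma.

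Library totals ran from 13393750 to 17492095 counts, at which 3 counts correspond to 0.172 to 0.224 CPM by library totals alone, without TMM factors. All other CPM values given here are counts scaled to library size by TMM. The labels do not say that replicates were separate cultures, so each p-value reflects no more than the spread among the sequenced libraries, which may be technical. Fewer cells of a type and less RNA per cell cannot be told apart in such data. The mesenchymal genes COL1A1 (500 to 5240 CPM), SPARC and VIM were high in all 12 libraries, and RUNX2 and ALPL (8.21 to 20.1 CPM), both of the osteoblast lineage, were detected in each. The late osteoblast markers SP7, at 0 in 8 libraries, and BGLAP, at 0.298 to 2.26 CPM, were absent or low. These 8 markers summed to 14300 to 15100 CPM with anticarin-beta and 8810 to 11500 CPM with vehicle, and to 4740 to 4950 CPM under the CCT4 siRNA label and 3680 to 3990 CPM with control siRNA. Of the 7 tested, 5 were higher with anticarin-beta, beside 34.9% of all genes, and 3 under the CCT4 siRNA label, beside 10.7%. Under library totals alone, 3 were higher and 1 lower with anticarin-beta, and 2 were higher under the CCT4 siRNA label. The part of these markers in the members' results was not tested. Markers of epithelial, blood and endothelial cells summed to 6.38 to 15.8 CPM, with CD3E at 0 in every library. Among them PECAM1 (1.66 to 14.4 CPM), KRT19 (0.634 to 4.52 CPM) and VWF (0.107 to 0.924 CPM) were detected in all 12 libraries. CCT4, the siRNA's target, stood at 201, 200 and 216 CPM in the libraries labelled CCT4 siRNA, against 186, 160 and 185 CPM with control siRNA. Its change of 0.22 ± 0.0949 (SE) in log2 did not pass (adjusted p = 0.129, edgeR's quasi-likelihood test with Benjamini-Hochberg adjustment over all 17717 genes tested, as for every adjusted p below). The target's mRNA thus did not show the labelled knockdown, and directions drawn from these libraries carry that limit. CCT4 was 2.87-fold lower with anticarin-beta than with vehicle (adjusted p = 1.84e-08). With control siRNA it was 1.33-fold lower than with vehicle (adjusted p = 0.0029).

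Several member values rested on 1 library. Vehicle replicate 2 for MYC, anticarin-beta replicate 1 and control siRNA replicate 2 for MXD1 stood far from their group mates. Vehicle MYC differed 25.8-fold between its highest and lowest library, a spread reached by 9 of 11544 genes that averaged at least 5 CPM with vehicle (0.078%), where the median gene differed 1.21-fold. MXD1 differed 5.67-fold among anticarin-beta libraries and 4.61-fold among control siRNA libraries, spreads reached by 0.296% and 0.312% of genes. Few other genes lay as far from their group mates: between 1 and 9 genes per library lay over 4-fold above both group mates and between 3 and 16 lay over 4-fold below. Results that rest on these libraries are given with and without them.

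**Figure D1:**
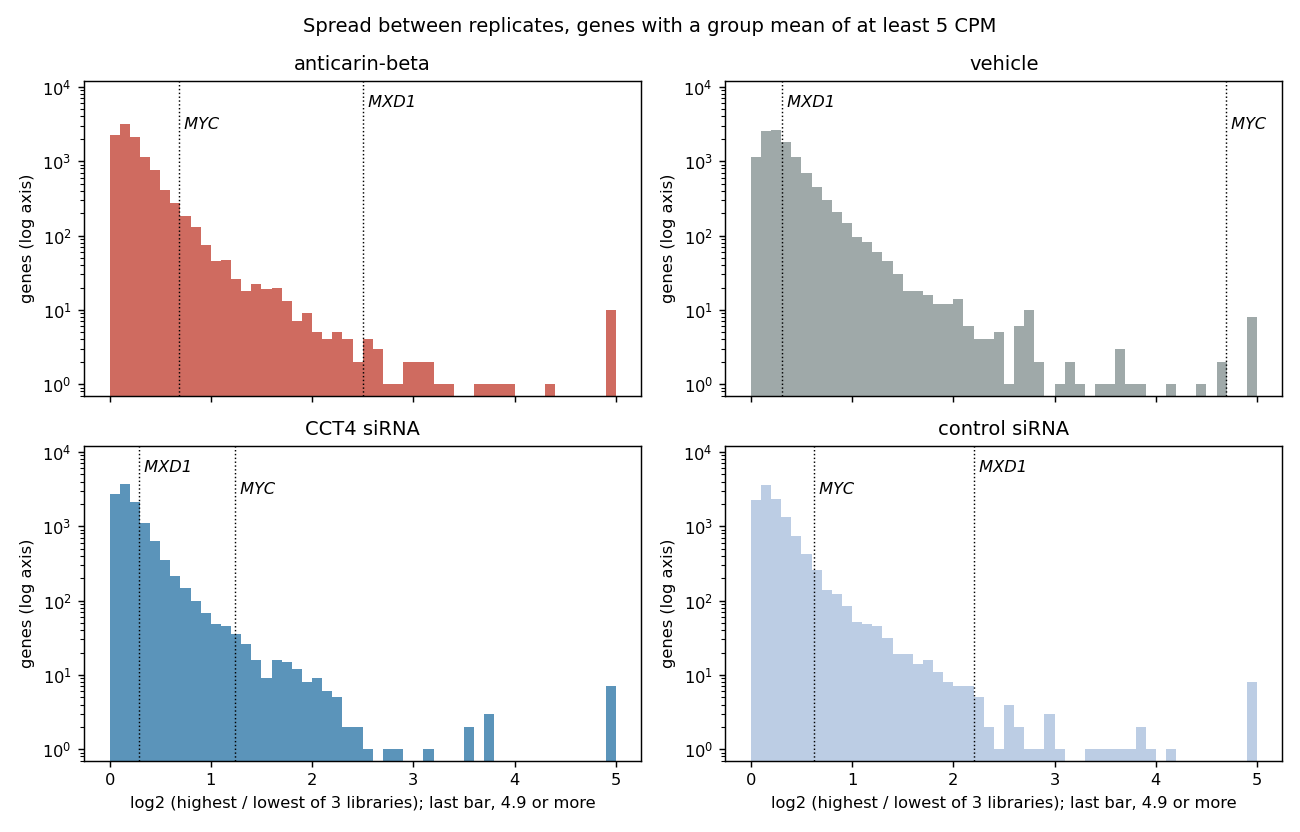
Histograms of the log2 ratio of the highest to the lowest of the 3 libraries of a group (x axis) against the number of genes (y axis, log scale), for genes that averaged 5 CPM or more in the group; dotted lines mark MYC and MXD1. MYC lies far in the tail of the vehicle group with a 25.8-fold spread, and MXD1 in the tails of anticarin-beta (5.67-fold) and control siRNA (4.61-fold).

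Of the 9 members with a promoter window in RefSeq's GRCh38.p14 table (250 bases before to 50 after the start, and MYC has no entry), 3 hold the canonical E-box CACGTG. This palindrome is bound by dimers of MAX with MYC, MXD proteins or MNT, and by dimers of MLX with its own partners. The 3 windows are shown because these same 3 genes, MXD4, MNT and MLX, changed with anticarin-beta. Change did not set them apart, since MXD1, MXI1, MXD3 and MGA, without the motif, changed as well, as did 73.0% of all genes tested. The E-box, searched on both strands and in capitals below, begins 238 bases before the start of MXD4 (chr4:2262060-2262359, minus strand), 193 bases before that of MNT (chr17:2401011-2401310, minus strand) and 50 bases before that of MLX (chr17:42566850-42567149, plus strand).
MXD4: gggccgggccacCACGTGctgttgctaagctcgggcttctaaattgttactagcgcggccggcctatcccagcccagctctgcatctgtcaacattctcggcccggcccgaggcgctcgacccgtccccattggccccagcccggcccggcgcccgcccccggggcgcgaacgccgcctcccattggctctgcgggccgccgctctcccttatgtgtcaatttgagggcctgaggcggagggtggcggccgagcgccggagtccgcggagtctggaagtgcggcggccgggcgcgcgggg
MNT: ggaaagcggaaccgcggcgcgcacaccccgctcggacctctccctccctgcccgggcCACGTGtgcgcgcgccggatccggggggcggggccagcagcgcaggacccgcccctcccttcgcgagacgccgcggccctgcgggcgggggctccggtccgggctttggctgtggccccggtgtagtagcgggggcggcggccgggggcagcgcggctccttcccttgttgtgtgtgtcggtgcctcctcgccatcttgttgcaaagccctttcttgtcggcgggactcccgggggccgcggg
MLX: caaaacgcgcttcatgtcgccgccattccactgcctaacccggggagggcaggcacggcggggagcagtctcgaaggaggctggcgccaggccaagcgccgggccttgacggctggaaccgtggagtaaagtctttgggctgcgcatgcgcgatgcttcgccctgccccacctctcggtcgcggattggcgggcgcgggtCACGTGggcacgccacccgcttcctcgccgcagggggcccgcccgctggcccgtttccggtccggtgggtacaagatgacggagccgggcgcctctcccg
The motif occurs in 7.3% of all 35116 windows and in at least 1 window of 8.8% of 27305 genes. No CACGTG lies in the windows of MYCN, MAX, MXD1, MXI1, MXD3 and MGA. With anticarin-beta, MNT rose and MXD4 and MLX fell, so the 3 genes with the motif did not share a direction.

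Set side by side per length of exon (TPM), MNT was the most abundant member in anticarin-beta libraries other than replicate 1, at 55.4, 52.1 and 51.2 TPM, and MLX in vehicle libraries other than replicate 2, at 42.6 to 44.5 TPM. In anticarin-beta libraries MGA (8.67 to 9.17 TPM), MXI1 (7.78 to 12.0 TPM) and MXD4 (10.4 to 11.3 TPM) came lowest of the detected members, with ranges of MXI1 that overlapped both. In vehicle libraries MGA (3.96 to 7.03 TPM) and MXD1 (6.90 to 8.59 TPM) were the lowest detected members apart from MYC, and they overlapped. There MNT (23.0 to 28.3 TPM), MAX (25.6 to 28.8 TPM) and MXD3 (25.5 to 28.2 TPM) could not be ordered, and MXI1 (14.8 to 26.9 TPM) overlapped all 3. MXD4 (34.5 to 39.8 TPM) and MLX stood above them without overlap. MYC was at 20.7 to 33.3 TPM with anticarin-beta and spanned 3.44 to 84.6 TPM with vehicle. In vehicle replicates 1 and 3 it was the lowest detected member, at 3.44 and 4.74 TPM. In the transfection experiment MLX, MNT and MXI1 led the order of means in both groups, with of 42.4, 37.2 and 34.5 TPM under the CCT4 siRNA label and 58.5, 44.5 and 36.4 TPM with control siRNA, and their ranges overlapped under the CCT4 siRNA label but not with control siRNA.

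**Figure D2:**
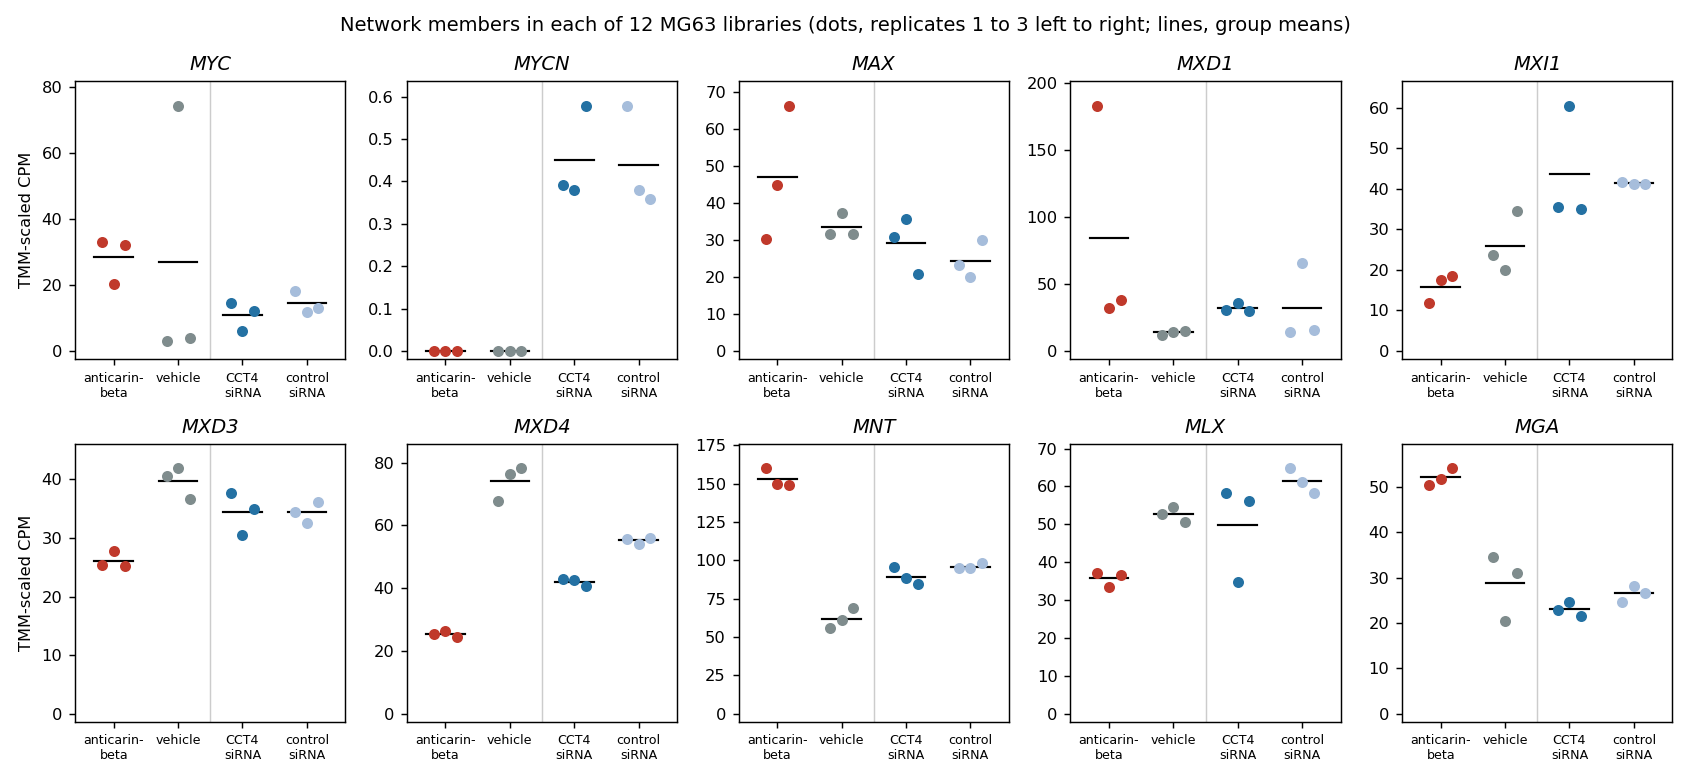
TMM-scaled CPM (y axis, linear, one scale per gene) of the 10 members in each of the 12 libraries; dots are replicates 1 to 3 from left to right, lines are group means, and the vertical rule separates the 2 experiments. MXD4, MNT, MXD3, MLX and MGA form tight anticarin-beta groups apart from vehicle, whereas 1 vehicle library sets the MYC mean and 1 anticarin-beta library the MXD1 mean.

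Across the compound comparison, 7 of the 9 members tested passed an adjusted p of 0.05, 3 of them higher (MXD1, MNT and MGA) and 4 lower (MXI1, MXD3, MXD4 and MLX). Over all genes 73.0% passed, 34.9% higher and 38.0% lower, so a share of this size is close to the background. In log2 the median fold change was 0.09 over the 9 members and -0.06 over all genes. MYC and MAX did not pass, and MYCN was left untested by the low-count filter.

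MYC, the activator of the network (ENSG00000136997, chr8:127735434-127741434 of GRCh38, plus strand), had 393, 221 and 383 counts in the anticarin-beta libraries, against 54, 1231 and 74 counts in the vehicle libraries. In scaled units these were 33.0, 20.4 and 32.0 CPM with anticarin-beta, against 2.88, 74.3 and 3.96 CPM with vehicle. The anticarin-beta libraries differed 1.61-fold, a spread reached by 6.33% of genes that averaged at least 5 CPM in that group. Below all of them lay 2 vehicle libraries, by far, and vehicle replicate 2 lay far above, so the groups overlapped. Means were 28.5 ± 6.99 CPM with anticarin-beta and 27 ± 40.9 CPM with vehicle (SD, n = 3 each), and the log2 fold change was 0.09 ± 0.86 (SE, adjusted p = 0.933) with a 95% interval from -1.79 to 1.96. Without vehicle replicate 2 the log2 fold change was 3.03 (adjusted p = 2.18e-05). No other annotated gene shares exon bases with MYC, and the cause of the high library was not tested.

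Neighbours and targets of MYC did not show an excess in vehicle replicate 2 of the size seen for MYC. PVT1, the long non-coding RNA gene beside MYC, had 533, 546 and 608 counts in the 3 vehicle libraries. In scaled units these were 28.4, 32.9 and 32.5 CPM, with replicate 2 the highest by little. CASC11, another transcript of that locus, had 5, 1 and 8 counts. PVT1 rose with anticarin-beta, to 112 ± 8.31 CPM against 31.3 ± 2.5 CPM with vehicle (SD, n = 3 each), a 3.58-fold difference (log2 1.84 ± 0.0972 SE, adjusted p = 3.08e-09). Among 56 MYC target genes, vehicle replicate 2 was the highest vehicle library for 4 (7.14%, beside 32.1% of all genes), whereas vehicle replicate 1, low in MYC, was the highest for 49 (87.5%, beside 34.1% of all genes). The median target in vehicle replicate 1 lay 0.29 above the mean of the other vehicle libraries on the log2 scale, against -0.02 for all genes.

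MYCN, the neural paralog of MYC (ENSG00000134323), had 0 counts in each of the 3 anticarin-beta and each of the 3 vehicle libraries. It had 6, 6 and 9 counts under the CCT4 siRNA label and 9, 6 and 6 with control siRNA. The transfected groups could not be told apart from each other, but both were above all libraries of the compound experiment. The observed rate with control siRNA was 7.86-fold above the floor of 3 counts over the vehicle group. That ratio leaves out the counting error of the control siRNA counts, so it is not a lower bound. MYCN shares 98 exon bases with the antisense gene MYCNOS, which itself had 0 to 2 counts per library.

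MAX, a shared partner of MYC, MXD proteins, MNT and MGA (ENSG00000125952), stood at 30.2, 44.9 and 66.3 CPM with anticarin-beta, against 31.6, 37.3 and 31.7 CPM with vehicle. The anticarin-beta libraries ranged from below every vehicle library to above them all. The log2 fold change was 0.49 ± 0.257 (SE, adjusted p = 0.102), and without anticarin-beta replicate 1 it was 0.73 (adjusted p = 0.0147). The same change also passed with DESeq2 (0.56, adjusted p = 0.0474), so the call on MAX depends on the library and the tool.

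The 4 MXD genes, whose products repress E-box genes through SIN3, did not move as a group. MXD1 (ENSG00000059728), known as a marker of differentiating cells, stood at 183, 32.3 and 37.7 CPM with anticarin-beta, against 12.2, 14.4 and 15.2 CPM with vehicle. All anticarin-beta libraries were above all vehicle libraries, and replicate 1 lay far above the others. The log2 fold change was 2.60 ± 0.685 (SE, adjusted p = 0.00415, 6.06-fold). Without anticarin-beta replicate 1 it was 1.33 (adjusted p = 0.0384), and without that library and vehicle replicate 2 it stayed at 1.33 with adjusted p = 0.0763. MXD1 shares 237 exon bases on its strand with SNRNP27, so its count is uncertain to that extent.

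MXD4 (ENSG00000123933) fell furthest among the members. It stood at 25.5, 26.2 and 24.5 CPM with anticarin-beta, against 67.8, 76.4 and 78.2 CPM with vehicle. The groups were far apart and each was tight, averaging 25.4 ± 0.825 CPM with anticarin-beta and 74.1 ± 5.57 CPM with vehicle (SD, n = 3 each). The log2 fold change was -1.55 ± 0.0749 (SE, adjusted p = 1.44e-09), a level 2.92-fold lower with anticarin-beta, and it ran from -1.96 to -1.48 over the 24 alternative analyses.

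MXD3 (ENSG00000213347), the MXD gene known from proliferating cells, stood at 25.4, 27.8 and 25.2 CPM with anticarin-beta, against 40.5, 41.9 and 36.6 CPM with vehicle. Every anticarin-beta library lay below every vehicle library, and MXD3 fell by 0.60 ± 0.0963 on the log2 scale (SE, adjusted p = 9.42e-05). Its exons overlap 926 bases of RAB24 on the same strand and 1158 bases of PRELID1 on the other, so its count is uncertain. MXI1 (ENSG00000119950) stood at 11.8, 17.5 and 18.4 CPM with anticarin-beta, against 23.6, 20 and 34.5 CPM with vehicle, close to each other at 18.4 and 20 but without overlap. Its log2 fold change was -0.71 ± 0.248 (SE, adjusted p = 0.0203), and the call was lost without vehicle replicate 3 (-0.47, adjusted p = 0.103) or without anticarin-beta replicate 1 (-0.54, adjusted p = 0.0877).

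MNT (ENSG00000070444), a widely expressed MAX-binding repressor known as an antagonist of MYC, was the most clearly raised member. It stood at 160, 150 and 149 CPM with anticarin-beta, against 55.9, 61.0 and 68.7 CPM with vehicle. The groups were separated by more than the whole range of either, and MNT rose 2.47-fold (log2 1.3 ± 0.0813 SE, adjusted p = 1.38e-08). Its log2 fold change lay between 0.89 and 1.38 over the 24 alternative analyses, lowest under library totals alone. The exons of MNT share 1065 bases with AC006435.1 on the opposite strand.

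MGA (ENSG00000174197), the large MAX partner of the Polycomb-type complex, stood at 50.5, 51.8 and 54.1 CPM with anticarin-beta, against 34.6, 20.4 and 31.1 CPM with vehicle. The groups did not overlap, and vehicle replicate 2 was the lowest. MGA rose 1.81-fold (log2 0.86 ± 0.151 SE, adjusted p = 0.000219), and without vehicle replicate 2 the log2 fold change was 0.64 (adjusted p = 0.000118). MLX (ENSG00000108788), the MAX-like partner, stood at 37.2, 33.5 and 36.6 CPM with anticarin-beta, against 52.8, 54.6 and 50.5 CPM with vehicle. MLX fell by 0.56 ± 0.152 on the log2 scale (SE, adjusted p = 0.00527), with no overlap, and 770 of its exon bases are shared with PSMC3IP on the other strand.

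**Figure D3:**
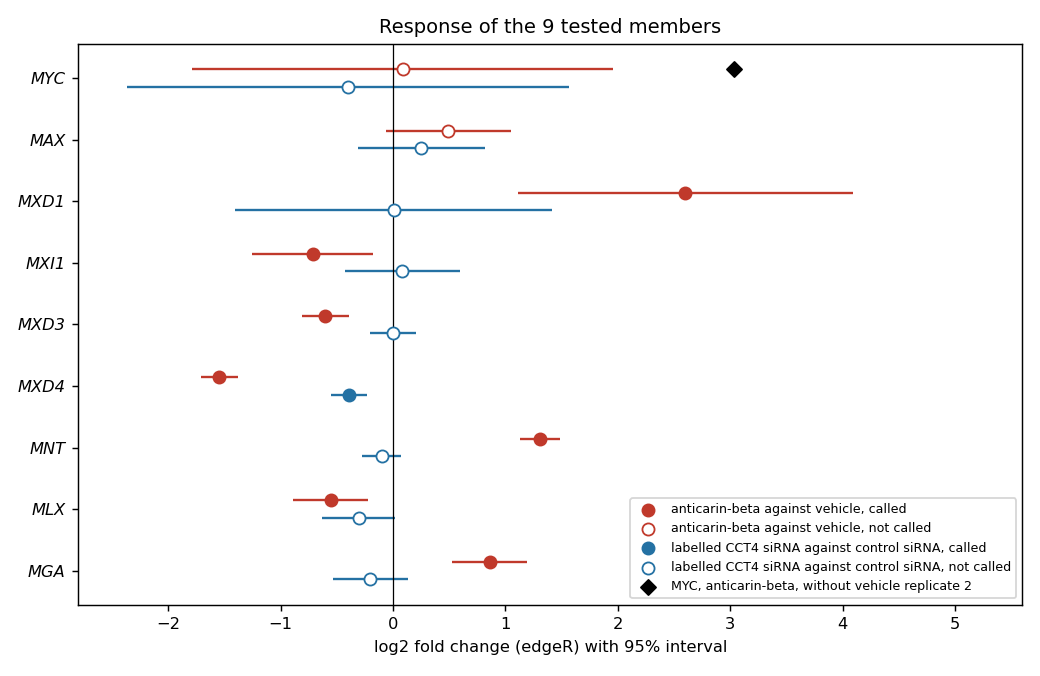
Log2 fold change with its 95% interval (x axis) of the 9 tested members (y axis) for anticarin-beta against vehicle and for the libraries labelled CCT4 siRNA against control siRNA; filled circles passed an adjusted p of 0.05, open circles did not, and the diamond is MYC without vehicle replicate 2. Filled circles lie on both sides of 0 for anticarin-beta, from MXD4 at -1.55 to MXD1 at 2.60, and MXD4 alone is filled for the CCT4 siRNA label.

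The 6 genes for MAX-binding repressors (MXD1, MXI1, MXD3, MXD4, MNT and MGA) can be set beside MYC per length. Their summed level was 185, 116 and 115 TPM with anticarin-beta, against 118, 115 and 136 TPM with vehicle, which overlapped. MNT made up 30%, 45.1% and 44.5% of that sum with anticarin-beta, against 19.5%, 20.8% and 20.9% with vehicle. MXD4 made up 5.92%, 9.73% and 9.04% with anticarin-beta, against 29.2%, 32.1% and 29.4% with vehicle. Both shares separated the groups completely, and anticarin-beta replicate 1 was low in each, with MXD1 at 47.2% of its sum. MYC as a share of MYC plus the repressors was 15.2%, 15.2% and 21.7% with anticarin-beta, against 2.83%, 42.3% and 3.38% with vehicle, which overlapped only through vehicle replicate 2. These shares are given as levels of mRNA, with no test.

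**Figure D4:**
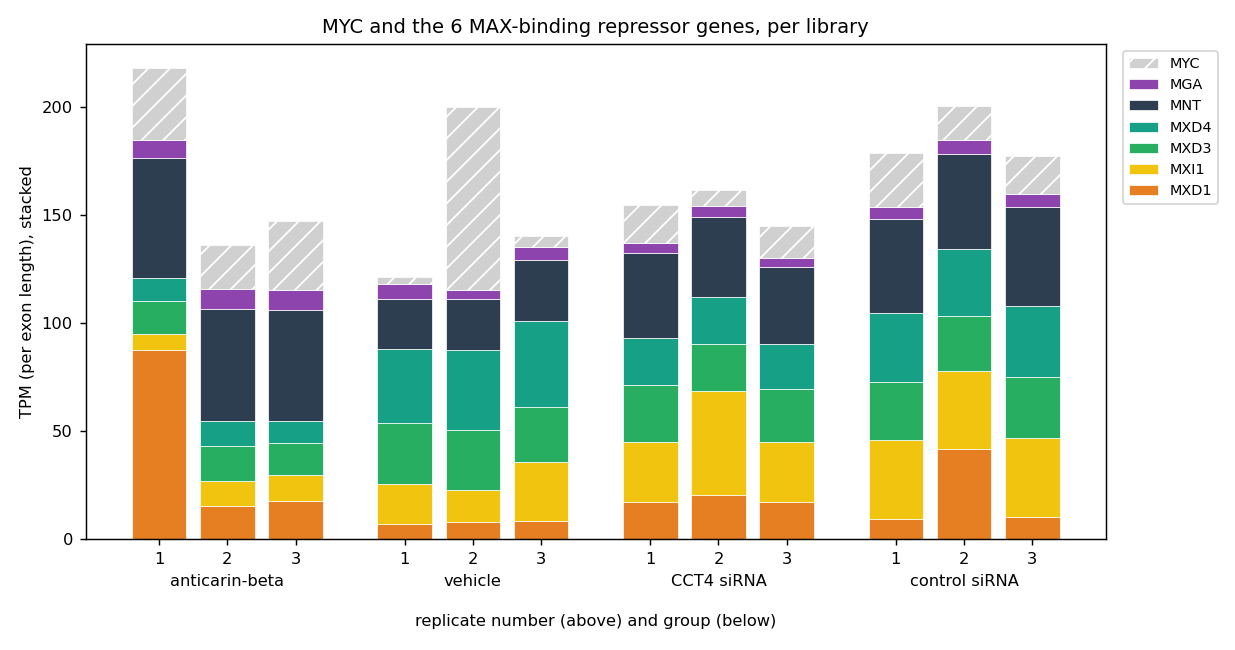
Stacked bars of TPM (y axis, from 0) for the 6 MAX-binding repressor genes and MYC (hatched, on top) in each library (x axis, replicates by group). The MNT segment is larger and the MXD4 segment smaller with anticarin-beta than with vehicle, and single libraries hold the tallest MXD1 and MYC segments.

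In the libraries labelled CCT4 siRNA, 1 of the 9 tested members passed, MXD4, beside 19.7% of all genes (10.7% higher and 9.04% lower). MXD4 stood at 43.0, 42.6 and 40.6 CPM under that label, against 55.5, 54.0 and 56.1 CPM with control siRNA. The groups did not overlap, and MXD4 fell by 0.39 ± 0.0724 on the log2 scale (SE, adjusted p = 0.00315), a level 1.31-fold lower that passed in all 24 alternatives. The median log2 fold change of the 9 members was -0.10, beside 0.01 over all genes.

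MLX stood at 58.3, 34.8 and 56.2 CPM under the CCT4 siRNA label, against 64.8, 61.1 and 58.4 CPM with control siRNA. All of the CCT4 siRNA values were lower, replicate 2 by far the most, and the change did not pass (log2 -0.30 ± 0.150 SE, adjusted p = 0.18). MYC stood at 14.5, 6.14 and 12.2 CPM under the CCT4 siRNA label, against 18.3, 11.9 and 13 CPM with control siRNA, which overlapped, with a log2 fold change of -0.40 and a 95% interval from -2.37 to 1.57. MXD1 stood at 30.4, 36.0 and 29.6 CPM under the CCT4 siRNA label, against 14.3, 65.9 and 15.6 CPM with control siRNA. Control siRNA replicate 2 alone lay above the CCT4 siRNA range, and the log2 fold change was 0.01 (adjusted p = 0.997) with it and 1.1 (adjusted p = 0.27) without it.

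The other members did not pass under the CCT4 siRNA label. MNT averaged 89.3 ± 5.57 CPM under it and 95.8 ± 1.98 CPM with control siRNA (SD, n = 3 per group), with a 95% interval of the log2 fold change from -0.28 to 0.07. MXD3 averaged 34.4 ± 3.62 CPM under the CCT4 siRNA label and 34.4 ± 1.82 CPM with control siRNA, with an interval from -0.21 to 0.21. For MGA, MAX and MXI1 the intervals ran from -0.54 to 0.13, from -0.31 to 0.82 and from -0.43 to 0.59, none of which shows that the groups were alike.

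When the response to anticarin-beta was set against the response under the CCT4 siRNA label in a single contrast, 5 of the 9 members passed, beside 59.9% of all genes (27.5% higher and 32.4% lower). The difference was upward for MNT (1.41 ± 0.114 SE on the log2 scale, adjusted p = 3.77e-07) and MGA (1.06 ± 0.215, adjusted p = 0.000946). Neither had passed under the CCT4 siRNA label. The difference was downward for MXD4 (-1.15 ± 0.104, adjusted p = 9.6e-07) and MXD3 (-0.60 ± 0.135, adjusted p = 0.0019). Of these only MXD4 had passed under the CCT4 siRNA label, also as lower. MXD1 also passed (2.59 ± 0.934, adjusted p = 0.0295), but its call was lost in 12 of 23 alternatives, among them without anticarin-beta replicate 1 (1.32, adjusted p = 0.125) and without control siRNA replicate 2 (1.49, adjusted p = 0.127). For MYC the difference was 0.49 ± 1.25 (adjusted p = 0.756), and 3.44 (adjusted p = 7.89e-05) without vehicle replicate 2.

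Between the controls of the 2 experiments, control siRNA against vehicle, 3 of the 9 members passed, beside 48.4% of all genes (24.8% higher and 23.6% lower). Experiment, time and transfection cannot be told apart in this comparison. MNT was higher with control siRNA (0.63 ± 0.0806 SE on the log2 scale, adjusted p = 3.55e-05), at 94.7, 94.7 and 98.1 CPM against 55.9, 61.0 and 68.7 CPM with vehicle. MXD4 was lower with control siRNA (-0.43 ± 0.0716, adjusted p = 0.000333), at 55.5, 54.0 and 56.1 CPM against 67.8, 76.4 and 78.2 CPM with vehicle. MXI1 was higher (0.67 ± 0.238, adjusted p = 0.0344), a call lost in 7 of 23 alternatives. Against vehicle, MNT was thus higher and MXD4 lower both with anticarin-beta and with control siRNA, in comparisons that share the vehicle libraries.

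The genes around the network were followed as lists, described by their counts. With anticarin-beta these are to be read beside 34.9% of all genes higher and 38.0% lower, and under the CCT4 siRNA label beside 10.7% higher and 9.04% lower, and nothing particular to a list is drawn from them. MYCL, the third MYC gene, had 3, 0 and 0 counts with anticarin-beta and 22 counts in each vehicle library, and passed as lower (adjusted p = 0.000558), whereas MLXIP, the partner of MLX, had 101 ± 3.30 CPM with anticarin-beta and 92.1 ± 6.09 CPM with vehicle (SD, n = 3 each) and did not pass. Among 12 other factors that bind E-boxes, 7 rose and 3 fell with anticarin-beta, with a median log2 fold change of 0.70, beside -0.06 over all genes. MITF, a regulator of pigment and lysosome genes, rose 9.75-fold, to 147 ± 4.06 CPM against 15.0 ± 6.73 CPM with vehicle, and its relative TFE3 rose 3.24-fold. ARNTL, a clock factor, rose 2.33-fold, and SREBF2, which drives cholesterol synthesis, 1.87-fold. Of the 12, 5 rose under the CCT4 siRNA label, TFE3 by 1.37-fold, and 2 under library totals alone.

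Of 18 coactivators of MYC, 9 rose and 8 fell with anticarin-beta, beside 73.0% of all genes that changed in either direction. WDR5, which tethers MYC to chromatin, fell to 17.3 ± 1.80 CPM, against 81.8 ± 6.59 CPM with vehicle (SD, n = 3 each), 4.72-fold lower (adjusted p = 3.45e-10). BPTF (4.74-fold), the acetyltransferases EP300 (3.64-fold) and CREBBP (3.28-fold), and ZBTB17 or MIZ1, through which MYC represses (3.43-fold), all rose. In the libraries labelled CCT4 siRNA 5 rose, among them ZBTB17 (1.44-fold), and EP400 fell 1.21-fold.

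On the repressing arm, 7 of 17 genes of the SIN3 complex rose and 5 fell with anticarin-beta (all genes, 34.9% and 38.0%), a split that turned to 3 and 10 under library totals alone, which shifted the median of all genes to -0.48. BRMS1 fell 6.06-fold and SAP30L 3.51-fold, and SUDS3 rose 2.07-fold. Of 12 genes of the MGA complex, 4 rose and 4 fell with anticarin-beta, and 3 and 8 under library totals alone. RYBP rose 6.23-fold, to 212 ± 6.47 CPM against 34.0 ± 1.90 CPM with vehicle, E2F6 rose 2.06-fold, and PCGF6, the subunit that names this Polycomb variant, fell 7.20-fold (SD, n = 3 each). HDAC1, a deacetylase held by both lists, rose 1.78-fold under the CCT4 siRNA label (adjusted p = 0.00011) and RYBP 1.35-fold.

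Of 16 genes that control the stability of the MYC protein, 8 rose and 5 fell with anticarin-beta (all genes, 34.9% and 38.0%), and 7 each way under library totals alone. FBXW7, the ubiquitin ligase subunit that marks MYC for degradation, rose 4.78-fold, the kinase GSK3B that primes this step 2.24-fold, and BTRC, another ligase subunit, 3.14-fold. Of the deubiquitinases that stabilise MYC, USP36 rose 5.07-fold and USP28 fell 3.23-fold. With the CCT4 siRNA label 3 rose and 5 fell, among them USP28 (1.55-fold lower) and BTRC (1.38-fold lower), and the 3 rises were lost under library totals alone.

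Of 56 MYC target genes tested, 19 rose and 31 fell with anticarin-beta, with a median log2 fold change of -0.32, beside -0.06 over all genes. Without vehicle replicate 1, the library in which these targets were highest, 20 rose and 29 fell. The replication genes MCM4 (84.3 ± 3.58 CPM with anticarin-beta and 351 ± 18.3 CPM with vehicle, SD, n = 3 each) and MCM5 fell 4.16-fold and 3.69-fold. In contrast RRP12, a ribosome assembly factor, rose 6.08-fold, TFB2M, a mitochondrial transcription factor, 4.28-fold, and PPRC1, a coactivator of respiration genes, 3.6-fold. The E-box CACGTG was present in the windows of 25 of 47 targets with a RefSeq entry (53.2%). Of those with it 7 rose and 15 fell (median -0.33), and of the 21 tested without it 8 rose and 10 fell (median -0.05).

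Among 11 genes that MYC is known to repress, 6 rose and 3 fell with anticarin-beta (all genes, 34.9% and 38.0%). GADD45A, a stress-induced cell cycle gene, rose 28.4-fold, to 471 ± 11.6 CPM against 16.6 ± 2.37 CPM with vehicle, and THBS1, an angiogenesis inhibitor, 15.5-fold (SD, n = 3 each). The cyclin kinase inhibitors CDKN1A and CDKN1B rose 2.12-fold and 2.11-fold, while PDGFRB and CEBPA fell 2.87-fold and 3.67-fold. Of 5 genes controlled through MLX and its partners, ARRDC4 (9.65-fold), KLF10 (5.10-fold) and TXNIP (2.59-fold) rose and FASN fell 1.43-fold.

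Under the CCT4 siRNA label 5 of the 56 targets rose and 3 fell, beside 10.7% and 9.04% of all genes, with GNL3, a nucleolar GTPase, 1.38-fold lower and MCM5 1.28-fold higher. Under library totals alone all 5 rises, that of MCM5 included, were lost and 5 targets fell. Of the MYC-repressed genes GADD45A rose 2.05-fold (adjusted p = 3.55e-05) and CEBPA fell 2.18-fold. Of the 5 tested genes controlled through MLX and its partners, 3 rose and 0 fell, and under library totals alone 1 rose and 1 fell. Among them KLF10 rose 2.30-fold, to 261 ± 8.9 CPM under the CCT4 siRNA label against 113 ± 4.57 CPM for control siRNA (SD over 3 libraries, adjusted p = 6.77e-07), and ARRDC4 did not pass. These small counts moved with single libraries, including those of the other experiment, which share the fit. Without vehicle replicate 1, 10 coactivators, 8 targets and 5 MYC-repressed genes rose. Without CCT4 siRNA replicate 1 the rises were 3 coactivators, 3 targets and 1 MLX-controlled gene, and without control siRNA replicate 2 they were 3 coactivators, 3 targets and 1 turnover gene.

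**Figure D5:**
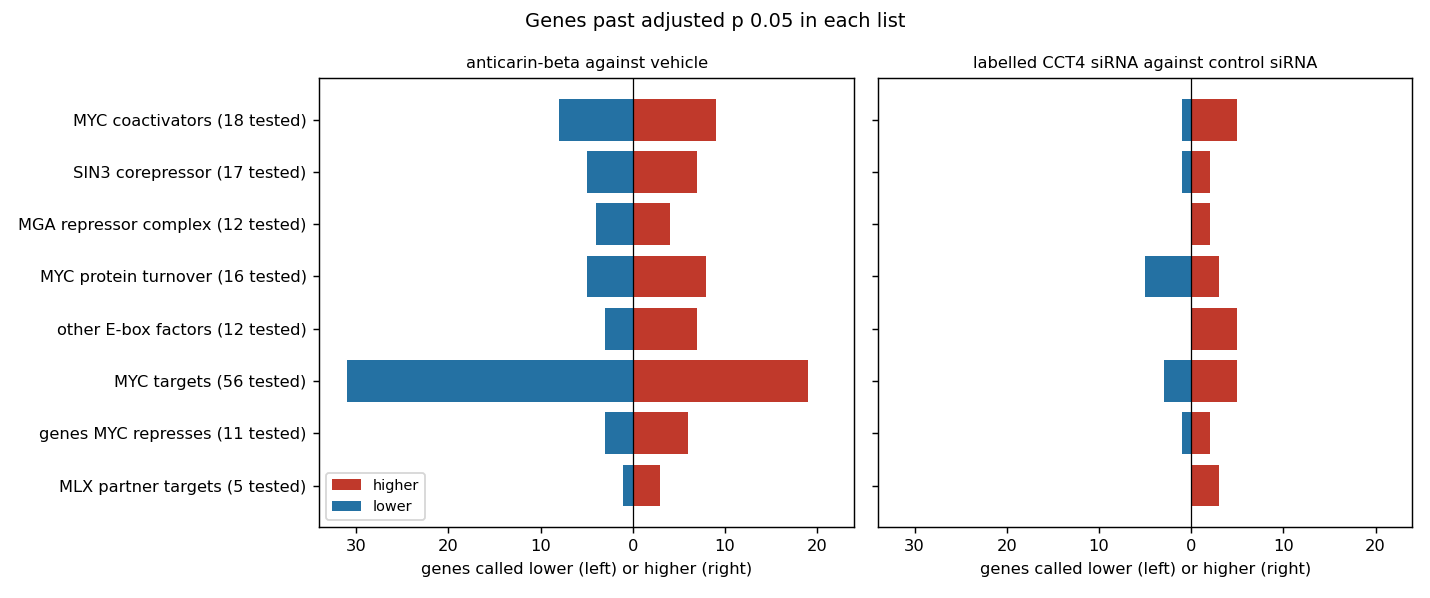
Number of genes of each list that passed an adjusted p of 0.05 as lower (left of 0) or higher (right of 0) on the x axis, for anticarin-beta against vehicle and for the libraries labelled CCT4 siRNA against control siRNA. With anticarin-beta most lists have bars on both sides, with 31 MYC targets lower and 19 higher, and the bars under the CCT4 siRNA label are short.

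The genes most like MYC over the 12 libraries were PRDM2 (Pearson r = 0.857 on log2(CPM + 0.5)), NPIPA1 (0.83), STK38L (0.776), TPM1 (0.759) and MTRF1 (0.753), taken from 11019 tested genes at or above 5 CPM on average. These values describe 12 libraries that are not independent within their 4 groups, and they include vehicle replicate 2. PRDM2, a zinc finger methyltransferase gene, stood at 107, 102 and 103 CPM with anticarin-beta, against 43.5, 103 and 53.0 CPM with vehicle. Like MYC it was high in vehicle replicate 2, a library that took part in the choice of these genes. For the same genes without that library, r was 0.862 for PRDM2, 0.896 for NPIPA1, 0.705 for STK38L, 0.78 for TPM1 and 0.793 for MTRF1.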

How the data were processed

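RNA of MG63 cells was sequenced in 12 libraries, for which the labels' protocols name a stranded TruSeq kit. STAR 2.5.2a, Subread and featureCounts 1.5.0 were used with the hg38 build, per the submitters' processing notes. The authors deposited whole-number counts per gene in 1 table of 50868 rows. The annotation release, strand setting and handling of multi-mapping reads were not given in the sources used here.

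Groups and replicate numbers came from the labels. Counts were tested with edgeR 4.0.16 (R 4.3.3, limma 3.58.1), by its two-sided quasi-likelihood test with TMM scaling, 1 mean per group over all 12 libraries (8 residual degrees of freedom), filterByExpr (17717 genes kept) and Benjamini-Hochberg adjustment over those genes; a gene with an adjusted p under 0.05 is called. The prior count of fold changes was 0.125. Replicates differed by more than sampling noise (chi-square per degree of freedom 8.48 to 26.5). Floors and intervals of counts cover counting error only. TPM used exon lengths of GENCODE 29 on GRCh38, in which 98.5% of gene identifiers were found. Promoter windows came from RefSeq GRCh38.p14. The code was tested on simulated data.

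All members and CCT4 are described, with members of related lists taken from up to 6 of smallest p per list and comparison, plus PVT1, CASC11 and MYCNOS beside members and the 5 genes most like MYC. Of the genes that this rule takes, a single gene is not reported here. The members and lists were chosen with earlier results of these data known. Alternatives were RLE, upper-quartile and total scaling, DESeq2 1.42.0, limma-voom, other filters, each experiment alone, a replicate block and leaving out single libraries. Leaving out 2 pairs of libraries and a robust fit were added after seeing the data.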

Additional observations from a re-analysis of the deposited data

How the results depend on the processing

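The calls of MXD4, MNT, MXD3, MGA and MLX in the compound comparison passed in all 24 alternatives, and between 6 and 8 of the 9 tested members were called. Of 216 member values per treatment comparison, 202 (anticarin-beta) and 190 (CCT4 siRNA label) kept direction and call. With library totals alone the median over all genes was -0.48 in log2 with anticarin-beta, beside -0.06, with 4292 genes called higher and 8956 lower, beside 6186 and 6740; under the CCT4 siRNA label the split was 903 and 2799, beside 1892 and 1601. Under the CCT4 siRNA label an adjusted p under 0.01 left 1517 called genes of 3493, and omitting libraries gave 1247 to 4026. Same-numbered replicates did not deviate together (correlations -0.067 to 0.061), and a replicate block called 5614 genes for control siRNA against vehicle, beside 8573; the MXD1 difference of responses did not pass with it (1.75, adjusted p = 0.09).

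MYC with anticarin-beta became -0.04 under upper-quartile scaling and -0.32 under library totals, and ran from -0.46 to 3.03 when libraries were omitted. MYC for control siRNA against vehicle became 0.66 with limma-voom and 1.41 with the replicate block, and ran from -1.44 to 2.07 without single libraries. The MYC difference of responses ran from -0.06 to 3.44, and that of MAX from -0.09 to 0.55, with -0.05 under library totals. Under the CCT4 siRNA label, MAX ran from -0.05 to 0.44, MXI1 from -0.23 to 0.22 (library totals -0.05), MXD1 from -0.35 to 1.1 and MXD3 from -0.07 to 0.08 without single libraries. There MXD1 was 0 with RLE scaling, DESeq2 and no filter, -0.02 with upper-quartile scaling, -0.12 with totals and -0.01 with each experiment alone, and MXD3 was -0.01, -0.01, -0.01, -0.02, -0.13 and -0.01 in the same order and 0 with limma-voom and the replicate block. MXD1 for control siRNA against vehicle became -0.54 with the replicate block, and MGA there ran from -0.32 to 0.04. The causes were not tested, beyond the single libraries named for MYC and MXD1. Levels per length from lengths in the deposited table were not run, since that table holds none. Depth limits MYCN, at or under 9 counts per library.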

Other observations

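The MYC locus gave a further value that belongs to no member. CCAT1, a long non-coding RNA gene of that region, had 36, 37 and 30 counts with anticarin-beta, against 13, 3 and 10 with vehicle, and rose 6.13-fold (adjusted p = 6.43e-06, edgeR's quasi-likelihood test). It had 151, 140 and 128 counts under the CCT4 siRNA label, against 188, 202 and 261 with control siRNA, values that did not overlap, and it did not pass there (adjusted p = 0.0636). Under library totals alone, 1 of the 2 tested transcripts beside members passed as lower under that label. All transfected libraries were above all libraries of the compound experiment, as for MYCN, and experiment, time and transfection cannot be told apart.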
